A study of Danio rerio with 8 samples.

Results

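RNA of *sox10*+ cells from *slc30a1* mutant zebrafish embryos was compared between 2.5 and 2 days post-fertilization (dpf), to describe which genes of the mutant neural crest lineage changed over this interval and which did not. The 4 libraries used were the 2 of the mutants at 2.5 dpf and the 2 of the mutants at 2 dpf, chosen by their labels for genotype and age out of the 8 libraries of the series. The 4 control libraries, 2 at 2.5 dpf and 2 at 2 dpf, were read beside them to show what the same interval did without the mutations. The mutants lack both copies of *slc30a1a* and of *slc30a1b*, made with CRISPR/Cas9, and were recognised by small heads and eyes. All embryos carried the transgene *Tg(sox10:kikGR)*, in which the *sox10* promoter drives a fluorescent protein. The labels call the other genotype control and do not give its *slc30a1* alleles. The study first obtained double mutants from double heterozygous parents. To raise their share, it then crossed parents that all lacked *slc30a1b*. Which cross gave these libraries, and thus whether their controls lacked *slc30a1b* too, is not given. Embryos were digested with collagenase and trypsin, living fluorescent cells were sorted, and their RNA was amplified by SMART-seq, in which cDNA is primed with oligo(dT) at poly(A) tails and copied by PCR. Levels are FPKM, in which the fragments of a transcript are divided by its length and by the size of the library, and each library was divided here by a median-ratio factor. Where a single signed value follows the levels of a gene, it is the log2 fold change of that gene, 2.5 over 2 dpf, on the log2(FPKM + 1) scale, which understates the change of low genes. Whether the replicates came from separate clutches is not given, so the p-values measure only the spread between these libraries, which may be technical.

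Neural crest cells form at the border of the neural plate, migrate, and give rise to the cartilage and bone of the pharyngeal arches, to pigment cells, to Schwann cells and other glia, and to neurons of the peripheral nervous system. Slc30a1 proteins carry zinc out of the cytosol. In zebrafish, *sox10* is known to be active in migrating crest, in its glial and pigment lineages, in chondrocytes, in the otic vesicle, and in oligodendrocytes. Bulk RNA gives the sum over the sorted cells, so fewer cells of a type and less RNA per cell cannot be told apart.

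The labels were checked first. *slc30a1a* was at 4.42 and 4.10 FPKM in 2.5 dpf mutants, against 6.45 and 7.39 FPKM in 2 dpf mutants (log2 fold change −0.59, limma adjusted p = 0.137). It was at 7.53 and 9.01 FPKM in 2.5 dpf controls, against 15.8 and 15.4 FPKM in 2 dpf controls. At each age both mutant libraries lay below both control libraries. *slc30a1b* did not pass the filter on low values and had at most 0.151 FPKM in any library. Of the crest markers, *sox10* itself was at 89.98 and 70.27 FPKM in 2.5 dpf mutants, against 51.5 and 73.6 FPKM in 2 dpf mutants, with overlap between the ages. *tfap2a*, an early crest regulator, was at 18.1 and 18.5 FPKM in 2.5 dpf mutants, against 20.2 and 18.3 FPKM in 2 dpf mutants. *foxd3*, which marks crest progenitors and early glia, was higher in both 2.5 dpf libraries (76.7 and 47.3 FPKM in 2.5 dpf mutants, against 24.2 and 33.4 FPKM in 2 dpf mutants). *crestin*, a transcript of premigratory and migrating crest, was near 0 (at most 0.335 FPKM in the mutants). The cells thus carried *sox10*, *foxd3*, and *tfap2a* at both ages.

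Over the genes listed at both ages, the mutant libraries summed to between 638596 and 685190 FPKM, with 22946 to 24067 genes above 0. The tables give no counts, so the depth is unknown and counting error has no interval. Over the 16875 genes tested, log2 levels correlated (across genes, not independent) at 0.973 between the 2.5 dpf mutant replicates, 0.986 between the 2 dpf mutant replicates, and 0.964 to 0.970 between ages. The 2.5 dpf mutant replicates stood apart from each other in several groups of genes. Summed over a list of lens genes they were at 40.3 and 188 FPKM, and over heat shock genes at 3236 and 999.6 FPKM. The libraries of each age come in a table of their own, so age and table cannot be told apart.

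Genes had to average 0.5 FPKM or more over the 4 mutant libraries, and 16875 did. With p-values adjusted after Benjamini and Hochberg and a threshold of 0.05, limma called 58 of them (0.344%), 28 of them higher at 2.5 dpf (0.166%) and 30 lower (0.178%). At an unadjusted p under 0.05 there were 3540 genes (21%), 1763 higher (10.4%) and 1777 lower (10.5%). Counts at that threshold in the gene lists below are to be read against these shares. Both 2.5 dpf libraries lay above both 2 dpf libraries for 4207 genes (24.9%) and below them for 4791 (28.4%), and the median log2 fold change was −0.02. The balance of the calls rested on the rescaling. With the scaling of the authors, the median log2 fold change was 0.25 and limma called 473 genes, 429 higher and 44 lower, among them all 58. The count moved with single libraries as well, to 15 without 2.5 dpf mutant replicate 2 and to 0 without 2 dpf mutant replicate 1 (2441 genes with unadjusted p under 0.05) or replicate 2 (1898 genes), each time with the lone library assumed to vary like the other age. A block on the replicate number gave 0 calls (3003 at an unadjusted p under 0.05). In the controls, 4120 of 16321 genes (25.2%) were at an unadjusted p under 0.05, against 21% in mutants. Their 2.5 dpf libraries lay above for 4344 (26.6%) and below for 4980 (30.5%), also near the mutant shares. The counts of calls are further apart than these shares, so they do not measure how much changed. Limma called 990 of the 16321 control genes (6.07%), 350 higher at 2.5 dpf (2.14%) and 640 lower (3.92%). That count was 99 without 2 dpf control replicate 1 and 180 without 2 dpf control replicate 2.

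**Figure D1:**
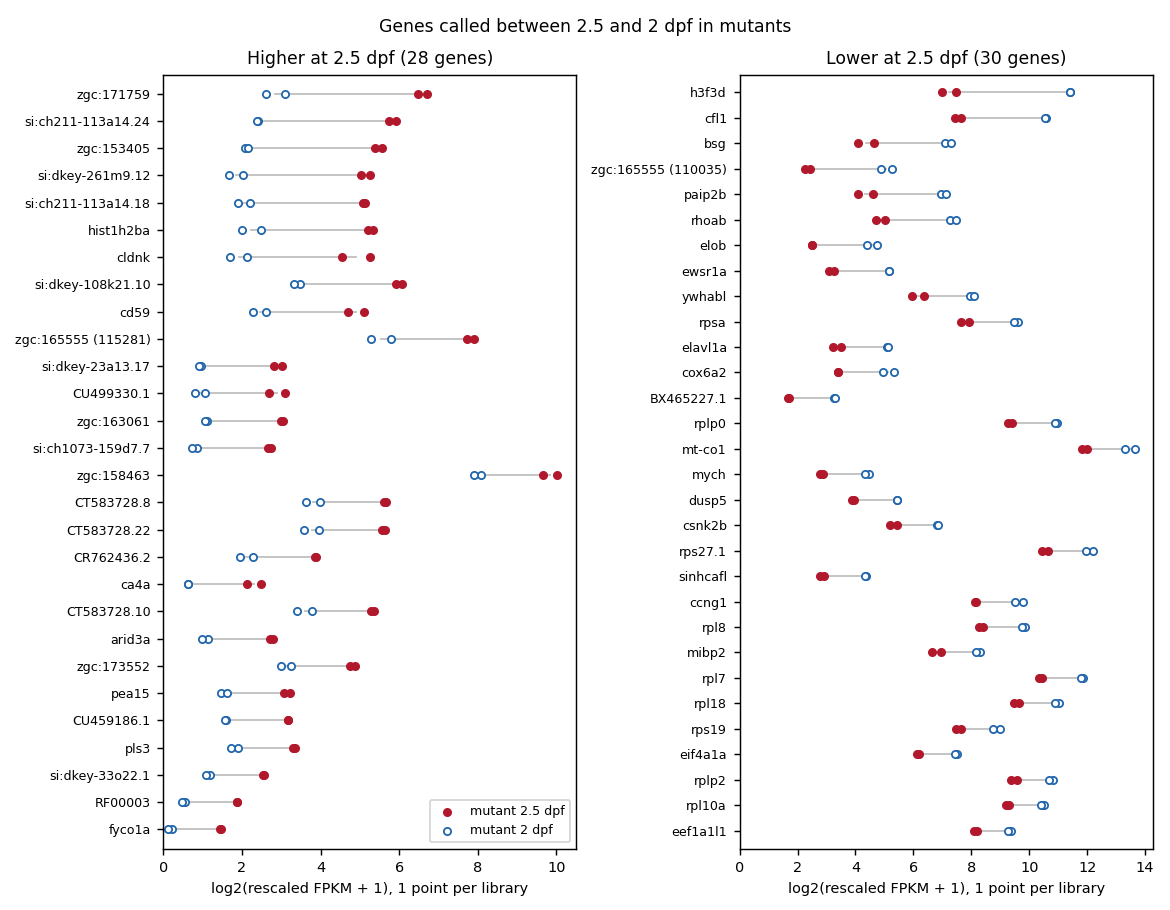
Levels of the 58 genes called between 2.5 and 2 dpf in mutants, as log2(rescaled FPKM + 1), with filled points for the 2.5 dpf libraries, open points for the 2 dpf libraries, and lines joining the group means. The 28 genes on the left were higher and the 30 on the right lower at 2.5 dpf, and the libraries of the ages do not overlap for any of them.

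The largest called rises were those of histone genes. Histones H2A, H2B, H3, and H4 package DNA, and the messenger RNAs of the clustered histone genes are made during DNA replication and usually end in a stem-loop in place of a poly(A) tail. *zgc:171759* (ENSDARG00000109737) was at 87.6 and 103 FPKM in 2.5 dpf mutants, against 7.57 and 5.09 FPKM in 2 dpf mutants (log2 fold change 3.75, standard error 0.21, limma adjusted p = 0.0143). *si:ch211-113a14.24* was at 59.0 and 52.9 FPKM in 2.5 dpf mutants, against 4.33 and 4.24 FPKM in 2 dpf mutants (3.45, standard error 0.15, limma adjusted p = 0.00710). *zgc:153405* was at 40.7 and 46.1 FPKM in 2.5 dpf mutants, against 3.23 and 3.46 FPKM in 2 dpf mutants (3.37, limma adjusted p = 0.00710). In each of the 3, both 2.5 dpf libraries were more than 10 times either 2 dpf library. *hist1h2ba*, an H2B gene, was at 35.8 and 39.1 FPKM in 2.5 dpf mutants, against 4.57 and 3.003 FPKM in 2 dpf mutants (log2 fold change 3.04). *si:ch1073-159d7.7*, named *h1l1* in a list of current zebrafish names, was at 5.64 and 5.34 FPKM in 2.5 dpf mutants, against 0.811 and 0.649 FPKM in 2 dpf mutants (log2 fold change 1.95).

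The genes of 5 genomic clones that hold these histone genes, other than *hist1h2ba*, were gathered after their values were seen. The group also holds *ano9a*, which is not named as a histone. Of 82 identifiers 76 were tested, with a median log2 fold change of 0.59. Both 2.5 dpf libraries lay above for 44 (24.9% of all genes) and below for 5 (28.4%). Limma called 12 higher (0.166% of all genes) and 1 lower (0.178%). The 1 called lower was ENSDARG00000110035, one of many identifiers with the symbol *zgc:165555*, at 3.81 and 4.42 FPKM in 2.5 dpf mutants, against 36.9 and 28.4 FPKM in 2 dpf mutants. Another identifier of this symbol (ENSDARG00000115281) rose, to 239.8 and 211 FPKM in 2.5 dpf mutants, against 54.2 and 38.1 FPKM in 2 dpf mutants. Copies of a histone gene are near-identical, and the reads of one could be assigned to another, so single copies are uncertain. The summed level of the 82 identifiers was 1712 and 1943 FPKM in 2.5 dpf mutants, against 1365 and 1080.1 FPKM in 2 dpf mutants. The sum was thus higher in the later libraries, by less than the single genes named. In the controls the same genes summed to 2369 and 1432 FPKM at 2.5 dpf, against 1425 and 1827 FPKM at 2 dpf, which overlap. Gene by gene the controls had a median of 0.73, with 16 called higher (2.14% of all genes tested there) and 3 lower (3.92%). There *zgc:171759* was at 72.7 and 64.8 FPKM in 2.5 dpf controls, against 3.83 and 6.16 FPKM in 2 dpf controls (log2 fold change 3.56, limma adjusted p = 0.00798). The 25 genes named *hist1* or *hist2* or described as histone H3.2, also gathered afterwards, had no common direction. In mutants 7 lay above (24.9% of all genes) and 4 below (28.4%), limma called 1 higher, and the median was 0.14, between −0.12 and 0.39 without single libraries, while in controls it was −0.36.

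Single genes of other RNAs rose too. *zgc:158463*, which RefSeq classes as a ribosomal RNA, was at 1033 and 807 FPKM in 2.5 dpf mutants, against 269.6 and 237 FPKM in 2 dpf mutants (log2 fold change 1.85, limma adjusted p = 0.0387). One identifier of RF00003 (ENSDARG00000082628), the small nuclear RNA U1 of the spliceosome, was at 2.69 and 2.68 FPKM in 2.5 dpf mutants, against 0.465 and 0.387 FPKM in 2 dpf mutants (log2 fold change 1.41, limma adjusted p = 0.0476). *CT583728.8*, *CT583728.22*, and *CT583728.10* were called higher. *CT583728.8* was at 49.5 and 47.9 FPKM in 2.5 dpf mutants, against 14.8 and 11.4 FPKM in 2 dpf mutants (log2 fold change 1.84, limma adjusted p = 0.0387). Among the 17 tested genes named after the same clone, a group made after values were seen, both 2.5 dpf libraries lay above both 2 dpf libraries for all 17 (24.9% of all genes), with a median of 1.27. Several of these have almost the same level in every library, so they may share reads and are not 17 separate observations. RNAs named by Rfam accession went both ways. Of 112 tested, 19 lay above (24.9% of all genes) and 40 below (28.4%) without overlap, and limma called 1, the U1 gene.

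Among genes of cell types, the called rises were led by 2 genes of myelinating glia. *cldnk*, a claudin of zebrafish myelin, was at 37.6 and 22.4 FPKM in 2.5 dpf mutants, against 2.23 and 3.40 FPKM in 2 dpf mutants (log2 fold change 3.02, standard error 0.30, limma adjusted p = 0.0405). *cd59*, a membrane-anchored inhibitor of complement found on developing myelinating glia in zebrafish, was at 33.3 and 25.2 FPKM in 2.5 dpf mutants, against 3.90 and 5.11 FPKM in 2 dpf mutants (log2 fold change 2.47, standard error 0.21, limma adjusted p = 0.0378). Both were high in replicate 1 and replicate 2 of 2.5 dpf and low in both libraries of 2 dpf. Other called rises, mentioned after their values were seen, were those of genes of enzymes and regulators. *ca4a*, a carbonic anhydrase, was at 3.41 and 4.65 FPKM in 2.5 dpf mutants, against 0.541 and 0.555 FPKM in 2 dpf mutants (1.73). *arid3a*, a DNA-binding regulator of transcription, was at 5.88 and 5.56 FPKM in 2.5 dpf mutants, against 1.19 and 0.973 FPKM in 2 dpf mutants (1.72). *pea15*, which binds ERK kinases, was at 8.38 and 7.43 FPKM in 2.5 dpf mutants, against 1.76 and 2.07 FPKM in 2 dpf mutants (1.63). *pls3*, an actin-bundling plastin, was at 8.87 and 9.15 FPKM in 2.5 dpf mutants, against 2.75 and 2.32 FPKM in 2 dpf mutants (1.52).

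The largest called falls were those of *h3f3d*, which encodes the replication-independent histone H3.3, and of *cfl1*, which encodes the actin-severing protein cofilin. *h3f3d* was at 124 and 177 FPKM in 2.5 dpf mutants, against 2739.6 and 2699 FPKM in 2 dpf mutants (log2 fold change −4.19, standard error 0.19, limma adjusted p = 0.00710). *cfl1* was at 172 and 199 FPKM in 2.5 dpf mutants, against 1514 and 1480.3 FPKM in 2 dpf mutants (log2 fold change −3.01, standard error 0.13, limma adjusted p = 0.00710). Their close relatives were not called. *h3f3c*, another H3.3 gene, was at 415 and 391 FPKM in 2.5 dpf mutants, against 438 and 516 FPKM in 2 dpf mutants. *cfl1l* was at 87.4 and 108.1 FPKM in 2.5 dpf mutants, against 141 and 164 FPKM in 2 dpf mutants. H3.3 genes encode one protein, and reads could be divided among them, so the fall of *h3f3d* alone is uncertain. Both genes fell in the controls too. *h3f3d* was at 165 and 142 FPKM in 2.5 dpf controls, against 3429.5 and 3259 FPKM in 2 dpf controls (log2 fold change −4.44, limma adjusted p = 0.00704). *cfl1* was at 257 and 175 FPKM in 2.5 dpf controls, against 1843 and 2009 FPKM in 2 dpf controls (−3.17, limma adjusted p = 0.00798).

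A set of housekeeping and regulatory genes fell beside them. *bsg* (basigin, a partner of lactate transporters) was at 16.01 and 23.7 FPKM in 2.5 dpf mutants, against 137 and 158 FPKM in 2 dpf mutants (log2 fold change −2.85, limma adjusted p = 0.0301). *paip2b*, which binds poly(A)-binding protein and lowers translation, was at 15.8 and 23.5 FPKM in 2.5 dpf mutants, against 122.6 and 137 FPKM in 2 dpf mutants (−2.69, limma adjusted p = 0.0327). The RNA-binding genes *ewsr1a* and *elavl1a*, the 14-3-3 gene *ywhabl*, and the elongin gene *elob* had log2 fold changes of −1.98, −1.73, −1.86, and −2.07. *dusp5*, a nuclear phosphatase of ERK, was at 14.3 and 13.6 FPKM in 2.5 dpf mutants, against 42.1 and 42.3 FPKM in 2 dpf mutants (−1.53, limma adjusted p = 0.0387). *mych*, a Myc family transcription factor, was at 6.34 and 5.81 FPKM in 2.5 dpf mutants, against 21.1 and 19.0 FPKM in 2 dpf mutants (−1.58, limma adjusted p = 0.0405). These 2 were picked after their values were seen. Of the 58 called genes, 2 had different transcripts listed in the tables of the ages.

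Genes of the cytosolic ribosome made up 9 of the 30 genes called lower. These were 9 of 77 ribosomal protein genes, where 0.178% of all genes were called lower. All 77 ribosomal protein genes were tested, and both 2.5 dpf libraries lay below both 2 dpf libraries for each of the 77 (28.4% of all genes). *rplp0*, of the ribosomal stalk, was at 614 and 673 FPKM in 2.5 dpf mutants, against 2011 and 1897 FPKM in 2 dpf mutants (log2 fold change −1.60, standard error 0.12, limma adjusted p = 0.0301). *rpsa*, of the small subunit, was at 199 and 240.2 FPKM in 2.5 dpf mutants, against 778 and 704 FPKM in 2 dpf mutants (−1.75, limma adjusted p = 0.0341). *rps27.1* was at 1389.5 and 1621 FPKM in 2.5 dpf mutants, against 4709.7 and 3996 FPKM in 2 dpf mutants (−1.53, limma adjusted p = 0.0387). The others called were *rpl7*, *rpl8*, *rpl10a*, *rpl18*, *rplp2*, and *rps19*, with log2 fold changes between −1.48 and −1.20. Over the list, log2 fold changes spanned −1.75 to −0.25 with a median of −0.96, which was −0.59 with the scaling of the authors and −0.45 with quantile normalization. As a share of the FPKM of the genes listed at both ages, ribosomal protein genes took 9.67 and 10.9% in 2.5 dpf mutants. In 2 dpf mutants they took 16.3 and 14.8%. Translation factors *eef1a1l1* and *eif4a1a*, named after their values were seen, fell as well (−1.18 and −1.31). In the controls limma called 60 of the 77, all lower (3.92% of all genes tested there), with a median of −1.23.

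Respiratory chain genes of the mitochondrial genome were lower at 2.5 dpf, and the direction of those of the nucleus turned with the scaling. *mt-co1*, a subunit of cytochrome c oxidase, was at 3628 and 4048 FPKM in 2.5 dpf mutants, against 12963 and 10241 FPKM in 2 dpf mutants (log2 fold change −1.59, standard error 0.15, limma adjusted p = 0.0387), and it was the 1 of 13 that limma called. For 10 of the 13 the 2.5 dpf libraries lay below (28.4% of all genes), among them *mt-nd1* (385 and 443 FPKM in 2.5 dpf mutants, against 1028 and 886 FPKM in 2 dpf mutants, log2 fold change −1.21, limma adjusted p = 0.0537), and the median was −0.99 (−0.61 with the scaling of the authors and −0.29 with quantile normalization). Their share of the FPKM of the genes listed at both ages was 6.15 and 6.99% in 2.5 dpf mutants, against 11.6 and 9.34% in 2 dpf mutants. The 91 tested nuclear genes of the respiratory chain had a median of −0.13, which turned to 0.24 with the scaling of the authors and to 0.22 with quantile normalization. Of the 91, 41 lay below (28.4% of all genes) and 11 above (24.9%), and 20 were lower and 1 higher at an unadjusted p under 0.05. Limma called 1 of the 91, *cox6a2*, an oxidase subunit, at 9.62 and 9.65 FPKM in 2.5 dpf mutants, against 29.6 and 38.998 FPKM in 2 dpf mutants (−1.72, limma adjusted p = 0.0476). In the controls limma called 6 of the 13 mitochondrial genome genes and 2 of the 91 nuclear genes lower (3.92% of all genes tested there). Their medians in the controls were −1.04 and −0.31.

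**Figure D2:**
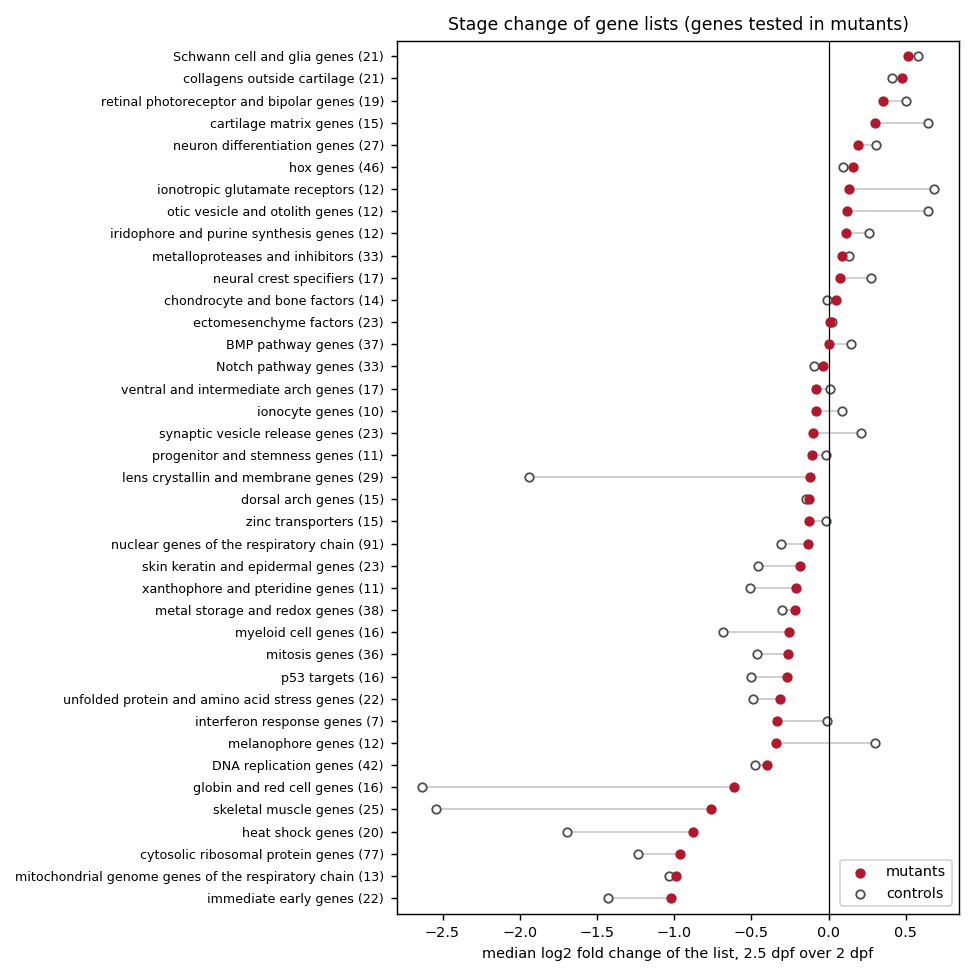
Median log2 fold change, 2.5 over 2 dpf, of 39 gene lists in mutants (filled points) and in controls (open points), with the number of genes tested in mutants in parentheses. Ribosomal protein, mitochondrial genome, heat shock, and immediate early genes lie lowest in mutants, and the muscle, globin, and lens lists lie lower in controls than in mutants.

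Cartilage genes were weakly expressed in the mutants at both ages. The list of matrix genes held 23 identifiers, of which 15 passed the filter. Both 2.5 dpf libraries lay above for 6 (24.9% of all genes) and below for 1 (28.4%), with a median of 0.30. Limma called 0, and 3 were at an unadjusted p under 0.05, against 21% of all genes. *col2a1a*, the main fibrillar collagen of cartilage, was at 7.55 and 11.3 FPKM in 2.5 dpf mutants, against 5.86 and 5.27 FPKM in 2 dpf mutants (log2 fold change 0.65, limma adjusted p = 0.183). It was at 20.7 and 47.2 FPKM in 2.5 dpf controls, against 10.1 and 19.0 FPKM in 2 dpf controls. *cnmd* (chondromodulin) was at 18.6 and 34.5 FPKM in 2.5 dpf mutants, against 13.9 and 17.4 FPKM in 2 dpf mutants. *hapln1b*, which links hyaluronan to proteoglycans, was at 1.84 and 3.38 FPKM in 2.5 dpf mutants, against 1.19 and 1.08 FPKM in 2 dpf mutants. *matn1*, a matrilin of maturing cartilage, was at 0.179 and 2.62 FPKM in 2.5 dpf mutants, against 0.205 and 0.262 FPKM in 2 dpf mutants, with overlap between the ages and with one library of 2.5 dpf above the rest. The matrix gene *col11a2* stayed under the filter, at 0.325 and 0.592 FPKM in 2.5 dpf mutants, against 0.151 and 0.136 FPKM in 2 dpf mutants. Summed over the list, the levels were 97.9 and 137 FPKM in 2.5 dpf mutants and 87.4 and 95.6 FPKM in 2 dpf mutants, against 170.0 and 459.9 FPKM in 2.5 dpf controls and 106 and 206 FPKM in 2 dpf controls. Of 20 tested in the controls, 12 lay above (26.6% of all genes tested there) and 0 below (30.5%). Their median was 0.64, and limma called 1 higher (2.14%).

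Factors that direct chondrocytes had no common direction, and limma called 0 of the 14 tested (1 at an unadjusted p under 0.05). *sox9a*, required for cartilage formation, was at 53.7 and 64.1 FPKM in 2.5 dpf mutants, against 73.1 and 65.5 FPKM in 2 dpf mutants, lower in both 2.5 dpf libraries. *barx1*, a marker of arch prechondrogenic cells, was at 57.4 and 38.6 FPKM in 2.5 dpf mutants, against 39.1 and 51.7 FPKM in 2 dpf mutants, with overlap. *nkx3.2*, which marks the developing jaw joint, was at 3.28 and 5.88 FPKM in 2.5 dpf mutants, against 7.36 and 7.04 FPKM in 2 dpf mutants (log2 fold change −0.60, limma adjusted p = 0.263). *tgfb3* was at 10.7 and 15.4 FPKM in 2.5 dpf mutants, against 19.1 and 18.3 FPKM in 2 dpf mutants (−0.51, limma adjusted p = 0.241). *runx2b*, a regulator of bone formation, was at 1.24 and 2.53 FPKM in 2.5 dpf mutants, against 1.52 and 2.04 FPKM in 2 dpf mutants. It was at 4.70 and 2.71 FPKM in 2.5 dpf controls, against 6.65 and 11.6 FPKM in 2 dpf controls. Its interaction of genotype and age was 1.12 at an unadjusted p of 0.0472 (limma adjusted p = 0.999). *trps1*, a repressor of GATA targets in cartilage, was higher in both 2.5 dpf libraries (1.49 and 1.55 FPKM in 2.5 dpf mutants, against 0.703 and 0.555 FPKM in 2 dpf mutants, log2 fold change 0.65).

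Collagen genes outside cartilage lay higher at 2.5 dpf. Of 21 tested collagen genes outside cartilage, both 2.5 dpf libraries lay above for 17 (24.9% of all genes) and below for 0, with a median of 0.48, and limma called 0 (10 at an unadjusted p under 0.05). *col6a2*, a chain of the microfibrillar collagen VI, was at 5.25 and 3.59 FPKM in 2.5 dpf mutants, against 1.35 and 1.16 FPKM in 2 dpf mutants (log2 fold change 1.27, standard error 0.21, limma adjusted p = 0.0663). *col6a3* was at 1.78 and 1.16 FPKM in 2.5 dpf mutants, against 0.292 and 0.0314 FPKM in 2 dpf mutants (1.13, limma adjusted p = 0.0770). *col27a1b* and the basement membrane gene *col4a5* had log2 fold changes of 0.77 and 0.79. *col1a1a*, the abundant collagen of dermis and bone, was at 56.9 and 147 FPKM in 2.5 dpf mutants, against 104 and 92.8 FPKM in 2 dpf mutants and overlapped. Among proteases that cut matrix, *mmp11a* was at 4.47 and 4.56 FPKM in 2.5 dpf mutants, against 1.48 and 1.44 FPKM in 2 dpf mutants (1.18, limma adjusted p = 0.0547). *adamts3*, which processes procollagen, was at 5.08 and 5.81 FPKM in 2.5 dpf mutants, against 3.64 and 2.27 FPKM in 2 dpf mutants (0.73). Their list of metalloproteases and inhibitors went both ways. Of 33 tested, 13 lay above (24.9% of all genes) and 8 below (28.4%), with a median of 0.09. Limma called 0 of them (8 higher and 3 lower at an unadjusted p under 0.05). The collagen list had a median of 0.41 in the controls, where 1 was called.

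Neural crest and arch regulators differed between the ages in both directions, and limma called 0 of them. In the list of 17 tested crest specifiers the median was 0.07 (3 members at an unadjusted p under 0.05, against 21% of all genes). *pax3a*, a factor of early crest and pigment progenitors, was at 5.59 and 4.84 FPKM in 2.5 dpf mutants, against 2.18 and 1.96 FPKM in 2 dpf mutants (log2 fold change 1.03, limma adjusted p = 0.0657), and *foxd3* had a log2 fold change of 1.06 (limma adjusted p = 0.132). *snai2*, a zinc-finger repressor of migrating crest, was at 12.3 and 14.2 FPKM in 2.5 dpf mutants, against 18.03 and 19.4 FPKM in 2 dpf mutants (−0.47, limma adjusted p = 0.176), lower in both 2.5 dpf libraries. Of the progenitor genes, *mycb* was at 23.4 and 25.3 FPKM in 2.5 dpf mutants, against 46.6 and 44.4 FPKM in 2 dpf mutants (−0.88). *mycn* was at 29.3 and 29.6 FPKM in 2.5 dpf mutants, against 48.0 and 38.8 FPKM in 2 dpf mutants (−0.54). Both *myc* genes were lower in either 2.5 dpf library. *sox2*, which marks neural and glial progenitors, was at 22.8 and 27.7 FPKM in 2.5 dpf mutants, against 10.7 and 16.2 FPKM in 2 dpf mutants (0.89), and thus higher. *tert*, the catalytic subunit of telomerase, lay at 2.42 and 2.58 FPKM in 2.5 dpf mutants, against 2.57 and 2.21 FPKM in 2 dpf mutants, with overlap.

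Ectomesenchyme is the crest that forms skeleton. *twist1a*, which holds crest in that fate, was at 166 and 196 FPKM in 2.5 dpf mutants, against 292 and 292 FPKM in 2 dpf mutants (log2 fold change −0.69, limma adjusted p = 0.0860). It was at 83.5 and 123.2 FPKM in 2.5 dpf controls, against 166 and 295 FPKM in 2 dpf controls. *prrx1a* was at 71.4 and 58.2 FPKM in 2.5 dpf mutants, against 74.8 and 82.8 FPKM in 2 dpf mutants. Other members were higher at 2.5 dpf. *alx4b*, a homeobox gene of frontonasal crest, was at 30.6 and 14.8 FPKM in 2.5 dpf mutants, against 8.88 and 9.10 FPKM in 2 dpf mutants (1.17). *osr1*, a zinc-finger regulator, was at 81.9 and 50.01 FPKM in 2.5 dpf mutants, against 28.6 and 37.0 FPKM in 2 dpf mutants (0.96). Replicate 1 was the higher of the 2.5 dpf libraries in both. Over the list of 23, the median was 0.01.

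Along the arches, ventral identity is set by Edn1 and BMP signals and dorsal identity by Jagged and Notch signals. *edn1*, the endothelin ligand, was at 2.19 and 1.43 FPKM in 2.5 dpf mutants, against 0.422 and 0.262 FPKM in 2 dpf mutants (log2 fold change 1.09, limma adjusted p = 0.0736). *bmp4* was at 9.43 and 7.61 FPKM in 2.5 dpf mutants, against 5.57 and 4.04 FPKM in 2 dpf mutants (0.73). *hand2*, a ventral effector, was at 202 and 126 FPKM in 2.5 dpf mutants, against 123.4 and 131 FPKM in 2 dpf mutants, with overlap. *dlx2a*, expressed along the whole arch, was at 73.6 and 70.9 FPKM in 2.5 dpf mutants, against 114 and 109 FPKM in 2 dpf mutants (−0.62). *dlx1a*, with the same domain, was at 49.3 and 58.2 FPKM in 2.5 dpf mutants, against 78.2 and 73.8 FPKM in 2 dpf mutants (−0.49). *dlx3b*, of the ventral and intermediate arch, was lower (−0.61) and *dlx5a*, at 140.2 and 129 FPKM in 2.5 dpf mutants, against 104 and 126 FPKM in 2 dpf mutants, slightly higher. Of the dorsal genes, the ligand gene *jag1b* was at 3.37 and 4.71 FPKM in 2.5 dpf mutants, against 6.64 and 4.60 FPKM in 2 dpf mutants, with overlap. The receptor gene *notch2* was at 2.01 and 2.04 FPKM in 2.5 dpf mutants, against 1.08 and 1.09 FPKM in 2 dpf mutants (0.55, limma adjusted p = 0.134). *nr2f1b*, a nuclear receptor, was at 5.20 and 4.56 FPKM in 2.5 dpf mutants, against 8.05 and 7.08 FPKM in 2 dpf mutants (−0.55). The dorsal list, which also holds *dlx1a*, *dlx2a*, and *dlx2b*, had a median of −0.13. The ventral and intermediate list had one of −0.08, and with the scaling of the authors these were 0.24 and 0.22. Neither list thus had a direction that held over the scalings. For the wider pathways, the medians were −0.04 over 33 Notch genes and −0.0008 over 37 BMP genes, with 0 called by limma in either. At an unadjusted p under 0.05 were 8 and 10 of them, against 21% of all genes.

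Pigment lineages differed. Xanthophores, the yellow pigment cells, make pteridines from GTP. *gch2*, the first enzyme of that path, was at 72.3 and 4.57 FPKM in 2.5 dpf mutants, against 131 and 338 FPKM in 2 dpf mutants (log2 fold change −3.39, standard error 1.21, limma adjusted p = 0.201). *gch2* was lower in both 2.5 dpf libraries, but these differed from each other more than 10 times. *aox5*, an oxidase of xanthophores, was at 0.748 and 0.0658 FPKM in 2.5 dpf mutants, against 1.25 and 2.95 FPKM in 2 dpf mutants (−1.16). *slc2a15b*, a sugar transporter gene, was at 2.90 and 0.641 FPKM in 2.5 dpf mutants, against 3.24 and 6.31 FPKM in 2 dpf mutants (−1.16). Of the 11 tested on the list, 3 lay above (24.9% of all genes) and 4 below (28.4%), limma called 0 (5 at an unadjusted p under 0.05), and the median of −0.21 turned to 0.03 with the scaling of the authors. *gch2* was at 8.13 and 3.24 FPKM in 2.5 dpf controls, against 77.9 and 169.5 FPKM in 2 dpf controls (−4.21, limma adjusted p = 0.0148). Melanophore genes overlapped for the most part. *mitfa*, their master regulator, was at 2.34 and 2.33 FPKM in 2.5 dpf mutants, against 2.27 and 4.80 FPKM in 2 dpf mutants. *dct* was at 3.07 and 8.67 FPKM in 2.5 dpf mutants, against 5.83 and 12.7 FPKM in 2 dpf mutants. *pmela*, of melanosome fibrils, was at 2.77 and 4.89 FPKM in 2.5 dpf mutants, against 3.37 and 7.28 FPKM in 2 dpf mutants. In each of these, replicate 2 of 2 dpf stood above the other libraries. The median of the 12 tested was −0.34, and it lay between −0.61 and 0.07 when single libraries were left out. In the iridophore list *pnp4a*, of purine synthesis in the reflecting pigment cells, was at 58.3 and 14.1 FPKM in 2.5 dpf mutants, against 15.8 and 27.4 FPKM in 2 dpf mutants, where replicate 1 of 2.5 dpf stood above the rest.

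Several genes of myelinating glia, and genes of noradrenaline synthesis, were higher at 2.5 dpf. Of 21 tested genes of Schwann cells and glia, both 2.5 dpf libraries lay above for 11 (24.9% of all genes) and below for 2 (28.4%). The median was 0.51, and limma called 2 higher (0.166% of all genes), *cldnk* and *cd59*. Summed over the list, the ages overlapped, at 2794 and 3411 FPKM in 2.5 dpf mutants, against 2874 and 3153 FPKM in 2 dpf mutants. In the controls limma called 4 of 22 higher (2.14% of all genes tested there) and 2 lower (3.92%), with a median of 0.58. Some other genes of the myelin sheath shared the direction of *cldnk* and *cd59* in mutants. *mag*, a myelin-associated glycoprotein, was at 5.27 and 4.21 FPKM in 2.5 dpf mutants, against 0.357 and 0.994 FPKM in 2 dpf mutants (log2 fold change 1.84, standard error 0.25, limma adjusted p = 0.0551). *mbpa*, a myelin basic protein gene, was at 4.22 and 2.22 FPKM in 2.5 dpf mutants, against 0.238 and 0.262 FPKM in 2 dpf mutants (1.76, limma adjusted p = 0.0609). *plp1b*, a proteolipid gene, was at 14.3 and 9.69 FPKM in 2.5 dpf mutants, against 2.37 and 3.84 FPKM in 2 dpf mutants (1.68, limma adjusted p = 0.0656). *fabp7a*, of immature glia, was at 1235 and 1622 FPKM in 2.5 dpf mutants, against 1179.9 and 1362 FPKM in 2 dpf mutants and overlapped. *egr2a*, which was counted as glial here and is also an immediate early gene, was at 7.98 and 1.52 FPKM in 2.5 dpf mutants, against 14.5 and 11.8 FPKM in 2 dpf mutants (−1.58). Since *sox10* is also active in oligodendrocytes, which glia carry these RNAs cannot be told from bulk levels.

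Noradrenaline is made in sympathetic neurons by the enzymes encoded by *th* and *dbh*. *th* was at 6.34 and 4.66 FPKM in 2.5 dpf mutants, against 1.74 and 1.52 FPKM in 2 dpf mutants (log2 fold change 1.32, standard error 0.20, limma adjusted p = 0.0618). *dbh* was at 16.6 and 16.9 FPKM in 2.5 dpf mutants, against 8.54 and 9.93 FPKM in 2 dpf mutants (0.80, limma adjusted p = 0.0841). Both were higher in either 2.5 dpf library. *phox2bb*, a determinant of autonomic neurons, was at 58.4 and 38.9 FPKM in 2.5 dpf mutants, against 26.1 and 30.6 FPKM in 2 dpf mutants (0.74). *ntrk2a*, a neurotrophin receptor, was at 1.97 and 2.03 FPKM in 2.5 dpf mutants, against 0.843 and 0.785 FPKM in 2 dpf mutants (0.75). General neuron and vesicle genes went both ways. *elavl3*, a pan-neuronal gene, was at 27.3 and 23.02 FPKM in 2.5 dpf mutants, against 40.7 and 21.6 FPKM in 2 dpf mutants. *stmn2b*, of growing axons, was at 35.2 and 36.8 FPKM in 2.5 dpf mutants, against 68.3 and 63.6 FPKM in 2 dpf mutants (−0.86, limma adjusted p = 0.0652). *snap25a*, of synaptic vesicle fusion, was at 21.1 and 21.8 FPKM in 2.5 dpf mutants, against 30.6 and 30.1 FPKM in 2 dpf mutants (−0.48). *sypb* (synaptophysin) was at 1.37 and 3.40 FPKM in 2.5 dpf mutants, against 9.60 and 7.85 FPKM in 2 dpf mutants (−1.60). *vamp2*, also of vesicle fusion, was higher in both 2.5 dpf libraries, at 90.1 and 97.1 FPKM in 2.5 dpf mutants, against 62.8 and 48.6 FPKM in 2 dpf mutants (0.75). Of 27 tested neuron genes the 2.5 dpf libraries lay above for 12 and below for 5, and of 23 genes of vesicle release above for 6 and below for 9 (24.9% of all genes above and 28.4% below). Limma called 0 in either, and 8 and 5 were at an unadjusted p under 0.05, against 21% of all genes. *th* was at 5.75 and 2.94 FPKM in 2.5 dpf controls, against 0.807 and 0.523 FPKM in 2 dpf controls (1.60, limma adjusted p = 0.0353). *dbh* was at 18.4 and 17.4 FPKM in 2.5 dpf controls, against 6.82 and 4.47 FPKM in 2 dpf controls (1.53, limma adjusted p = 0.0262).

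**Figure D3:**
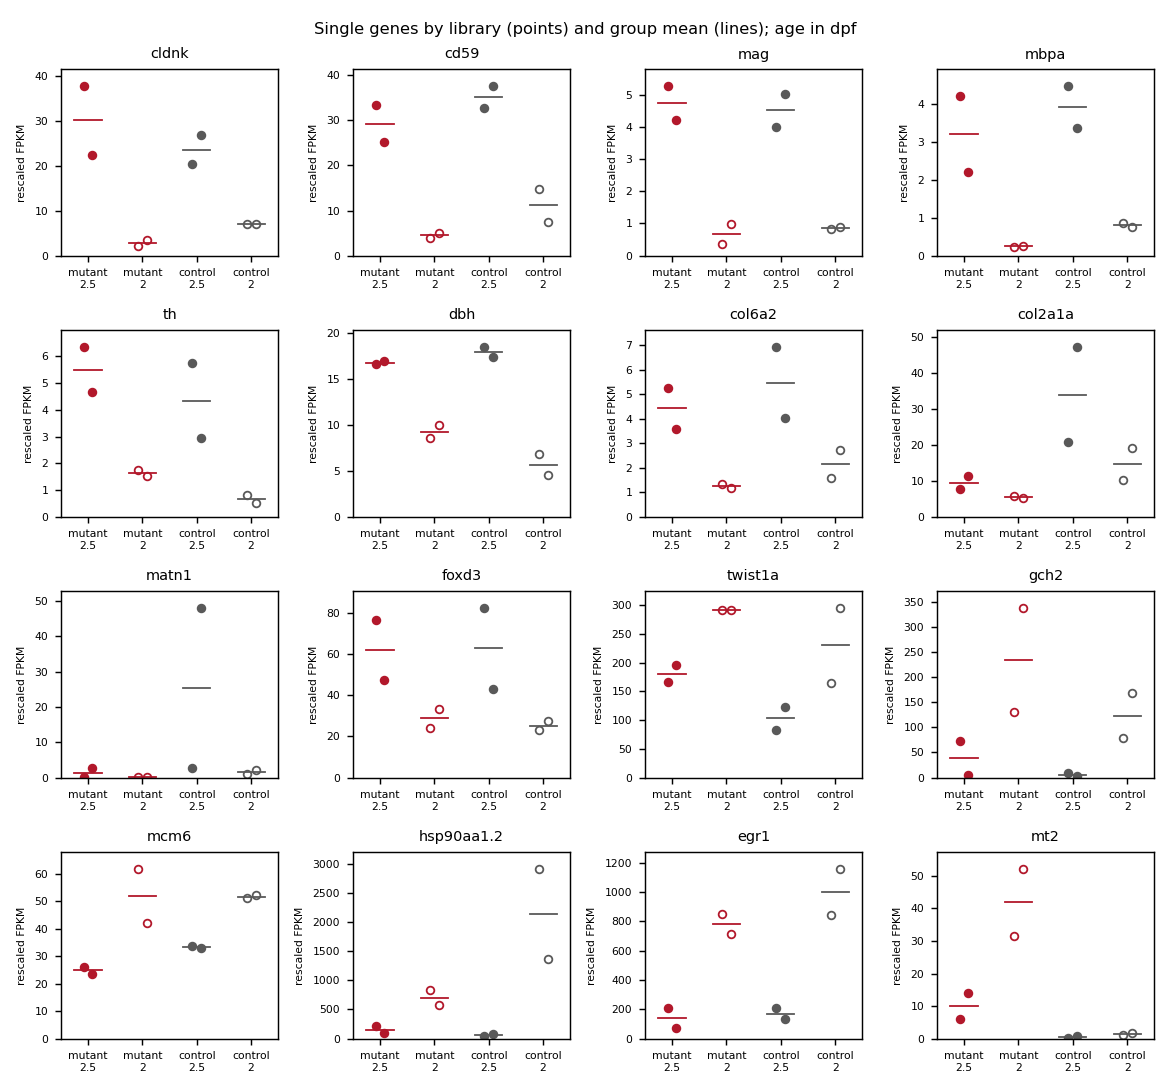
Rescaled FPKM of 16 genes in each library, with points for libraries and lines for group means, in mutants and controls at 2.5 and 2 dpf. The glial genes *cldnk*, *cd59*, *mag*, and *mbpa* and the noradrenaline genes *th* and *dbh* are higher in both 2.5 dpf libraries of either genotype, while *col2a1a* at 2.5 dpf is lower in both mutant than in both control libraries.

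DNA replication genes were lower at 2.5 dpf. All 42 of the list were tested, and the 2.5 dpf libraries lay below for 36 (28.4% of all genes) and above for 1, with a median of −0.40 and 0 called by limma (23 at an unadjusted p under 0.05). *mcm6*, of the replicative helicase, was at 26.1 and 23.7 FPKM in 2.5 dpf mutants, against 61.8 and 42.1 FPKM in 2 dpf mutants (log2 fold change −1.01, limma adjusted p = 0.0945). *mcm5*, of the same complex, was at 36.7 and 30.01 FPKM in 2.5 dpf mutants, against 62.1 and 59.5 FPKM in 2 dpf mutants (−0.85, limma adjusted p = 0.0797). *cdc6*, which loads the helicase, was at 7.13 and 6.95 FPKM in 2.5 dpf mutants, against 14.6 and 11.8 FPKM in 2 dpf mutants (−0.81). *chaf1b*, of the chromatin assembly factor, was at 6.10 and 6.16 FPKM in 2.5 dpf mutants, against 10.4 and 11.4 FPKM in 2 dpf mutants (−0.74). With the scaling of the authors the median was −0.06. Mitosis genes had a median of −0.26, with 20 of 36 below (28.4% of all genes) and 3 above (24.9%), and this median turned to 0.07 with the scaling of the authors. *ccna2*, a cyclin of S and G2 phase, was at 14.4 and 12.5 FPKM in 2.5 dpf mutants, against 20.9 and 25.3 FPKM in 2 dpf mutants (−0.73). *cenpf*, of the kinetochore, was at 3.59 and 2.37 FPKM in 2.5 dpf mutants, against 1.75 and 0.439 FPKM in 2 dpf mutants (1.01). In the controls the medians of the replication and mitosis lists were −0.48 and −0.47. There 38 of 42 and 32 of 36 lay below (30.5% of all genes tested there), and limma called 1 and 0 lower (3.92%).

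Immediate early and heat shock genes were lower at 2.5 dpf. Immediate early genes are transcribed within minutes of a stimulus, tissue dissociation among others. *egr1* was at 207 and 69.9 FPKM in 2.5 dpf mutants, against 848 and 711 FPKM in 2 dpf mutants (log2 fold change −2.68, standard error 0.49, limma adjusted p = 0.0770). *fosab* was at 858 and 235 FPKM in 2.5 dpf mutants, against 1845 and 1476 FPKM in 2 dpf mutants (−1.87). *junbb* was at 681 and 354 FPKM in 2.5 dpf mutants, against 2045 and 1391 FPKM in 2 dpf mutants (−1.78, limma adjusted p = 0.0846). The 2.5 dpf libraries lay below for 18 of 22 (28.4% of all genes) with a median of −1.02, and limma called 0 (16 at an unadjusted p under 0.05). Among chaperone genes, *hsp90aa1.2* was at 211 and 93.2 FPKM in 2.5 dpf mutants, against 836 and 573 FPKM in 2 dpf mutants (−2.29, limma adjusted p = 0.0736). *hspa8* was at 259 and 232 FPKM in 2.5 dpf mutants, against 526 and 515 FPKM in 2 dpf mutants (−1.08, limma adjusted p = 0.0538). *hsp70l* was at 229 and 6.15 FPKM in 2.5 dpf mutants, against 456 and 436 FPKM in 2 dpf mutants (−3.47), where replicate 1 of 2.5 dpf lay far above replicate 2 and both lay below the 2 dpf libraries. The chaperone list had a median of −0.88, with 14 of 20 below (28.4% of all genes), and limma called 0 (7 at an unadjusted p under 0.05). Of the genes of the integrated stress response, *atf3* was at 22.8 and 11.8 FPKM in 2.5 dpf mutants, against 82.5 and 40.8 FPKM in 2 dpf mutants (−1.76). *trib3* was at 8.54 and 7.29 FPKM in 2.5 dpf mutants, against 21.9 and 19.3 FPKM in 2 dpf mutants (−1.28, limma adjusted p = 0.0547). *chac1*, which degrades glutathione, was at 75.9 and 74.3 FPKM in 2.5 dpf mutants, against 139 and 150.4 FPKM in 2 dpf mutants (−0.94, limma adjusted p = 0.0579). The list of unfolded protein and amino acid stress genes that holds them had 3 of 22 above (24.9% of all genes) and 12 below (28.4%), with 0 called by limma (9 at an unadjusted p under 0.05), and its median of −0.32 turned to 0.04 with the scaling of the authors. In the controls the medians were −1.43 for immediate early genes, −1.69 for the chaperone list, and −0.49 for the unfolded protein and amino acid stress list. There limma called 10 of 22, 7 of 19, and 4 of 22 lower (3.92% of all genes tested there). Differences in handling between the ages were not tested.

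The p53 target *ccng1* (cyclin G1) was at 277 and 288 FPKM in 2.5 dpf mutants, against 883 and 733 FPKM in 2 dpf mutants (log2 fold change −1.51, standard error 0.14, limma adjusted p = 0.0387). It was at 60.9 and 68.7 FPKM in 2.5 dpf controls, against 204 and 169.8 FPKM in 2 dpf controls (−1.51, limma adjusted p = 0.0197). It fell by a like factor in both genotypes and lay higher in the mutants at either age. It was the 1 of 16 tested targets that limma called. *cdkn1a*, the cell cycle inhibitor p21, was at 29.99 and 58.6 FPKM in 2.5 dpf mutants, against 62.6 and 42.5 FPKM in 2 dpf mutants. *mdm2*, the ubiquitin ligase of p53, was at 6.06 and 10.7 FPKM in 2.5 dpf mutants, against 9.73 and 9.95 FPKM in 2 dpf mutants. *rps27l* was at 1011 and 1741 FPKM in 2.5 dpf mutants, against 2116 and 1523 FPKM in 2 dpf mutants. The last 3 genes overlapped between the ages. The median of the list was −0.27 and turned to 0.08 with the scaling of the authors.

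Among zinc and metal genes, metallothionein had lower levels at 2.5 dpf. *mt2*, a metallothionein that binds zinc and copper, was at 6.03 and 13.9 FPKM in 2.5 dpf mutants, against 31.6 and 52.1 FPKM in 2 dpf mutants (log2 fold change −2.03, standard error 0.42, limma adjusted p = 0.0882). *mt2* was at 0.264 and 0.675 FPKM in 2.5 dpf controls, against 1.15 and 1.78 FPKM in 2 dpf controls (−0.72, limma adjusted p = 0.107). Both 2.5 dpf libraries were below both 2 dpf libraries in either genotype, and every mutant library was above every control library. The interaction was −1.28 (unadjusted p = 0.0483, limma adjusted p = 0.999). The control levels are near the 1 added before taking logs, which shrinks their log2 fold change. The size of this interaction thus depends on that scale. Of 15 tested zinc transporter genes limma called 0 (3 at an unadjusted p under 0.05), and the median of −0.13 turned to 0.23 with the scaling of the authors. The exporter gene *slc30a4* was at 1.11 and 1.71 FPKM in 2.5 dpf mutants, against 2.11 and 3.36 FPKM in 2 dpf mutants (−0.64). The importer gene *slc39a10* was at 1.31 and 1.98 FPKM in 2.5 dpf mutants, against 2.82 and 2.73 FPKM in 2 dpf mutants (−0.53). *slc39a6* was at 20.1 and 18.3 FPKM in 2.5 dpf mutants, against 21.5 and 20.6 FPKM in 2 dpf mutants. The symbol *fthl27*, a ferritin gene of iron storage, is carried by ENSDARG00000031776 and ENSDARG00000116586, both tested. One of them was at 1255 and 1016 FPKM in 2.5 dpf mutants, against 1918 and 2229 FPKM in 2 dpf mutants (−0.87, limma adjusted p = 0.0770). *txn* (thioredoxin) was at 84.5 and 104 FPKM in 2.5 dpf mutants, against 160.4 and 174 FPKM in 2 dpf mutants (−0.83, limma adjusted p = 0.0797). Of the 38 tested on their list, 3 lay above (24.9% of all genes) and 16 below (28.4%), limma called 0 (8 at an unadjusted p under 0.05), and the median of −0.22 turned to 0.13 with the scaling of the authors.

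RNAs of cells outside the crest were present in the sorted fractions, and some differed with age. Skeletal muscle genes summed to 182 and 377 FPKM in 2.5 dpf mutants, against 455 and 593 FPKM in 2 dpf mutants, and of 25 tested 16 lay below without overlap (28.4% of all genes) and 0 above. *ckma*, the creatine kinase of muscle, was at 5.51 and 10.7 FPKM in 2.5 dpf mutants, against 18.5 and 26.5 FPKM in 2 dpf mutants (log2 fold change −1.41, limma adjusted p = 0.105). Myeloid genes summed to 11373 and 11090.0 FPKM in 2.5 dpf mutants, against 17326 and 26874 FPKM in 2 dpf mutants. Most of that sum was *lyz* (lysozyme), at 9606 and 9889 FPKM in 2.5 dpf mutants, against 15752 and 24155 FPKM in 2 dpf mutants (−0.999). *mpx*, the peroxidase of neutrophils, was at 40.9 and 39.6 FPKM in 2.5 dpf mutants, against 69.9 and 104 FPKM in 2 dpf mutants (−1.06). For myeloid genes 6 of 16 lay below (28.4% of all genes) and 0 above, and the median of −0.26 turned to 0.09 with the scaling of the authors. Globin and red cell genes summed to 12746 and 4184 FPKM in 2.5 dpf mutants, against 10489.6 and 13038 FPKM in 2 dpf mutants, with overlap. Of the globins, *hbbe1.1* was at 487 and 377 FPKM in 2.5 dpf mutants, against 858 and 1039 FPKM in 2 dpf mutants (−1.14, limma adjusted p = 0.0652). Lens genes summed to 40.3 and 188 FPKM in 2.5 dpf mutants, against 52.0 and 166 FPKM in 2 dpf mutants, with overlap, and the lens crystallin gene *cryaa* was at 0 in these 4 libraries. None of these genes was called by limma (12 muscle, 3 myeloid, 2 globin, and 0 lens genes at an unadjusted p under 0.05). The part of these cells in the changes of other genes was not tested.

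Lists of further tissues had members in both directions. Otic genes, which mark the ear vesicle that *sox10* also labels, had a median of 0.12 over 12 tested. Of these 4 lay above (24.9% of all genes) and 3 below (28.4%), limma called 0, and log2 fold changes spanned −0.53 to 1.12. The largest was that of *hmx2*, a homeobox gene of the otic vesicle, at 14.3 and 10.95 FPKM in 2.5 dpf mutants, against 4.86 and 5.66 FPKM in 2 dpf mutants (log2 fold change 1.12, limma adjusted p = 0.0688). *stm* (starmaker, of the otolith) was at 36.9 and 30.4 FPKM in 2.5 dpf mutants, against 27.6 and 13.9 FPKM in 2 dpf mutants (0.74). Skin genes had a median of −0.19 over 23, which turned to 0.16 with the scaling of the authors, and members went both ways, with *krt94* at 29.5 and 25.3 FPKM in 2.5 dpf mutants, against 10.9 and 14.3 FPKM in 2 dpf mutants (1.07). *icn2* was at 53.2 and 23.2 FPKM in 2.5 dpf mutants, against 67.0 and 125 FPKM in 2 dpf mutants (−1.35). Retinal genes such as *vsx1*, at 6.04 and 4.06 FPKM in 2.5 dpf mutants, against 2.64 and 4.68 FPKM in 2 dpf mutants, and *crx*, at 1.41 and 2.38 FPKM in 2.5 dpf mutants, against 1.28 and 2.56 FPKM in 2 dpf mutants, overlapped. The *hox* genes, which give crest its place along the body axis, had a median of 0.16 over 46. *hoxb6b* was at 14.6 and 14.4 FPKM in 2.5 dpf mutants, against 8.402 and 7.41 FPKM in 2 dpf mutants (0.81). *hoxc13a*, a gene of the tail, was at 3.81 and 9.62 FPKM in 2.5 dpf mutants, against 16.2 and 12.4 FPKM in 2 dpf mutants (−1.09), so that members went in opposite directions.

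**Figure D4:**
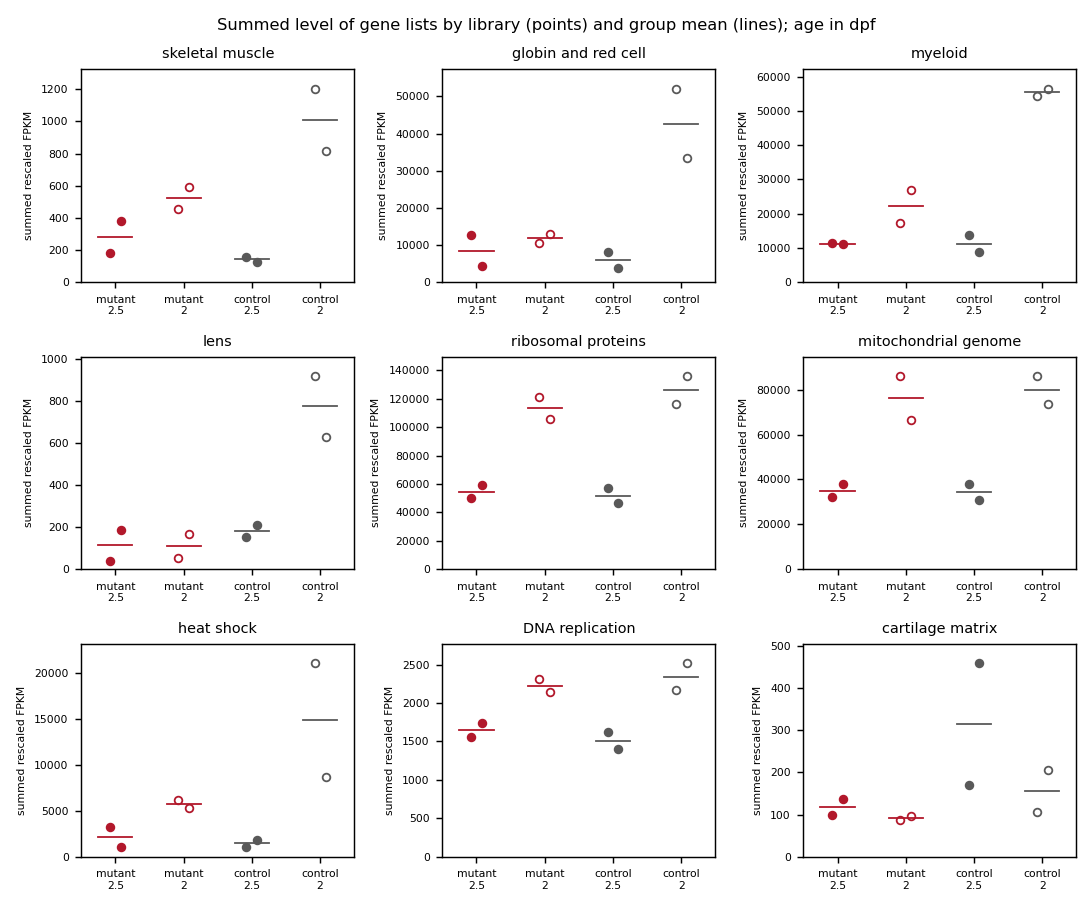
Summed rescaled FPKM of 9 gene lists in each library, with points for libraries and lines for group means, in mutants and controls at 2.5 and 2 dpf. Ribosomal protein and mitochondrial genome sums are lower in both 2.5 dpf libraries of either genotype, and the muscle, globin, myeloid, lens, and heat shock sums of 2 dpf are higher in controls than in mutants.

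The stage changes of the mutants were then set beside those of the controls. Of the 28 genes called higher in mutants, 18 were called higher in controls too (2.14% of all genes tested there), and for all 28 the control libraries of 2.5 dpf lay above those of 2 dpf (26.6% of all genes). Of the 30 called lower in mutants, 29 were called lower in controls (3.92%), and the control libraries did not overlap for the same number (30.5% of all genes). The 1 exception was *BX465227.1*, at 2.23 and 2.18 FPKM in 2.5 dpf mutants, against 8.67 and 8.77 FPKM in 2 dpf mutants (log2 fold change −1.62). It was at 1.88 and 7.09 FPKM in 2.5 dpf controls, against 2.10 and 10.9 FPKM in 2 dpf controls, where replicates differed more than ages. The same tables were used for both genotypes, so a change that comes with the table would be shared in this way.

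Read the other way, 350 genes were called higher and 640 lower in controls. Of the 337 higher ones tested in mutants, the 2.5 dpf libraries lay above for 298 (88.4%) against 24.9% of all genes, limma called 18, and the median log2 fold change was 0.92 in mutants and 1.16 in controls. Of the 621 lower ones tested in mutants, the 2.5 dpf libraries lay below for 473 (76.2%) against 28.4% of all genes, limma called 29, and the median was −0.75 in mutants and −1.48 in controls. For 606 of the 621 the change was smaller in size in mutants. These genes were selected by their change in the controls, so the sizes in the 2 genotypes do not stand on equal terms.

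**Figure D5:**
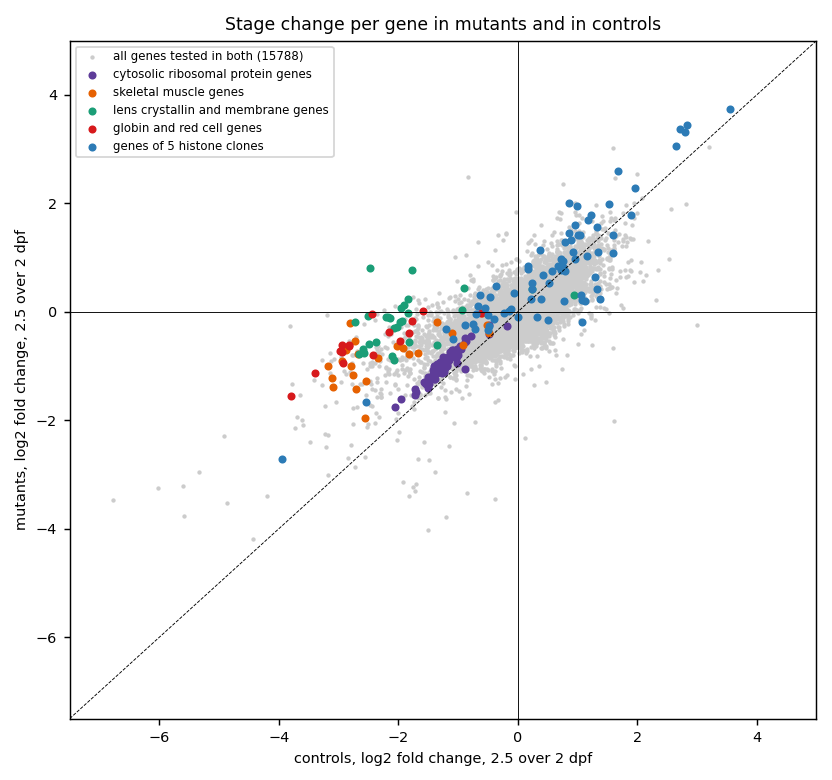
Log2 fold change, 2.5 over 2 dpf, of each gene tested in both genotypes (15788 genes), with mutants on the vertical and controls on the horizontal axis, the dashed line marking equal changes. Ribosomal protein genes and the genes of 5 histone clones lie near the line, and most muscle, lens, and globin genes lie above it, near or below 0 in mutants and far below 0 in controls.

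The difference between the genotypes in the stage change was tested by the interaction, which is positive where the change in mutants lay above that in controls. No interaction passed, with 16703 genes tested by limma (0 called, 0%) and 0.334 the lowest adjusted p. At an unadjusted p under 0.05 there were 806 genes (4.83%), 549 positive (3.29%) and 257 negative (1.54%). By list, 17 of 26 muscle genes, 14 of 16 globin and red cell genes, 17 of 38 lens genes, 5 of 16 myeloid genes, 5 of 20 heat shock genes, and 5 of 22 immediate early genes were positive at that threshold, and 0 of these lists' genes were negative. Otic genes went the other way, with 4 of 13 negative and 0 positive, as did glutamate receptor genes, with 3 of 12. The 19 cartilage matrix genes had a median interaction of −0.49, with 1 negative and 0 positive at that threshold (lowest limma adjusted p = 0.942). As an example, *mpx* was at 27.5 and 24.8 FPKM in 2.5 dpf controls, against 139 and 176 FPKM in 2 dpf controls, with a log2 fold change of −1.06 in the mutants and −2.53 in the controls (limma adjusted p = 0.00798), and its interaction was 1.47 (unadjusted p = 0.00148, limma adjusted p = 0.539). The otolith gene *stm* was at 60.6 and 50.4 FPKM in 2.5 dpf controls, against 16.4 and 9.66 FPKM in 2 dpf controls (2.05), and its interaction was −1.31 (unadjusted p = 0.0280, limma adjusted p = 0.955).

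The 10 genes with the smallest interaction p were taken among those called in controls with a smaller log2 fold change in mutants, and none of them passed the adjusted threshold. *brk1*, a subunit of the WAVE complex that drives actin branching, was at 111 and 129 FPKM in 2.5 dpf mutants, against 103 and 117 FPKM in 2 dpf mutants, with overlap. It was at 117 and 115 FPKM in 2.5 dpf controls, against 33.0 and 35.5 FPKM in 2 dpf controls (interaction −1.61, unadjusted p = 8.22e-05, limma adjusted p = 0.343). *cpn1*, a carboxypeptidase gene, was at 9.01 and 12.6 FPKM in 2.5 dpf mutants, against 9.05 and 17.8 FPKM in 2 dpf mutants. It was at 7.01 and 7.85 FPKM in 2.5 dpf controls, against 0 and 0 FPKM in 2 dpf controls, so that it is listed at 0 in the 2 dpf controls. *anxa1c*, an annexin of skin, was at 3.87 and 3.44 FPKM in 2.5 dpf mutants, against 6.78 and 8.76 FPKM in 2 dpf mutants. It was at 0.827 and 0.787 FPKM in 2.5 dpf controls, against 17.8 and 13.1 FPKM in 2 dpf controls (interaction 2.27, unadjusted p = 5.31e-05, limma adjusted p = 0.334). Several of the others are genes of white blood cells or secreted defence proteins. *gpr84*, a receptor of myeloid cells, was at 7.76 and 6.66 FPKM in 2.5 dpf mutants, against 5.94 and 6.90 FPKM in 2 dpf mutants. It was at 8.43 and 6.21 FPKM in 2.5 dpf controls, against 29.3 and 31.9 FPKM in 2 dpf controls. *mmp13a* (ENSDARG00000114451), a collagenase, was at 66.0 and 61.4 FPKM in 2.5 dpf mutants, against 86.4 and 129 FPKM in 2 dpf mutants. It was at 34.7 and 27.4 FPKM in 2.5 dpf controls, against 181 and 232 FPKM in 2 dpf controls. Another tested identifier of this symbol (ENSDARG00000012395) was not among the 10. *pglyrp5*, a peptidoglycan-binding protein, was at 6.62 and 9.29 FPKM in 2.5 dpf mutants, against 7.54 and 11.6 FPKM in 2 dpf mutants. It was at 10.4 and 14.9 FPKM in 2.5 dpf controls, against 69.6 and 90.7 FPKM in 2 dpf controls. The remaining ones were *agr1*, *dhrs13a.2*, *gsto2*, and *mustn1b*. In *brk1*, *gpr84*, and *pglyrp5* the mutant libraries of both ages lay within a narrow range, near the 2.5 dpf controls. The 10 were chosen for a smaller change in mutants, so this narrow range follows in part from that choice.

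The 10 with the smallest interaction p among genes with a larger log2 fold change in mutants, an unadjusted p under 0.05, and no overlap there did not pass the adjusted threshold either. They included 4 *CT583728* genes, the U1 gene, and *march7*. *si:dkey-23a13.17*, a gene of a histone clone, was at 6.03 and 7.08 FPKM in 2.5 dpf mutants, against 0.941 and 0.889 FPKM in 2 dpf mutants. It was at 3.16 and 3.73 FPKM in 2.5 dpf controls, against 1.11 and 1.75 FPKM in 2 dpf controls (interaction 1.096, unadjusted p = 0.00356, limma adjusted p = 0.604). One identifier of RF00004 (ENSDARG00000110399), the small nuclear RNA U2, was at 1.71 and 0.173 FPKM in 2.5 dpf mutants, against 22.1 and 14.5 FPKM in 2 dpf mutants. It was at 8.11 and 5.26 FPKM in 2.5 dpf controls, against 7.92 and 9.95 FPKM in 2 dpf controls (interaction −3.02, unadjusted p = 0.000801, limma adjusted p = 0.490). The peptide gene *pyya*, of the neuropeptide Y family, was at 5.79 and 10.01 FPKM in 2.5 dpf mutants, against 25.3 and 16.2 FPKM in 2 dpf mutants. It was at 19.6 and 16.8 FPKM in 2.5 dpf controls, against 13.96 and 11.8 FPKM in 2 dpf controls. *cart4*, also a neuropeptide gene, was at 12.01 and 12.7 FPKM in 2.5 dpf mutants, against 7.30 and 4.02 FPKM in 2 dpf mutants. It was at 1.30 and 0.193 FPKM in 2.5 dpf controls, against 1.93 and 2.25 FPKM in 2 dpf controls. Outside these 10, the called glial gene *cldnk* had an interaction of 1.40 (unadjusted p = 0.00749, limma adjusted p = 0.732). Its levels were lowest in 2 dpf mutants (37.6 and 22.4 FPKM in 2.5 dpf mutants, against 2.23 and 3.40 FPKM in 2 dpf mutants, and 20.2 and 26.8 FPKM in 2.5 dpf controls, against 7.04 and 7.06 FPKM in 2 dpf controls).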

How the data were processed

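RNA of *sox10*:kikGR+ cells was sequenced after SMART-seq amplification, in 2 libraries for each genotype and age. According to the study's methods, the authors aligned reads to zebrafish GRCz11 with HISAT and made the deposited FPKM values with StringTie. Versions are not given in the sources used here, and neither are counts, so depth is unknown. The table of each age was joined by gene identifier, which gave 25926 shared genes. Another 6131 identifiers are listed only at 2.5 dpf and were left out, also from the sums and shares of FPKM. Of the shared genes 4398 have different transcripts listed in the tables, 1877 of them tested.

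Libraries were rescaled by median ratios, and log2(FPKM + 1) values were fitted with limma 3.58.1 in R 4.3.3 (lmFit and eBayes with a variance trend), with a filter at a mean of 0.5 FPKM over the libraries compared and Benjamini-Hochberg adjustment at 0.05. Printed levels are rescaled over all 8 libraries, and fold changes come from the 4 libraries of a genotype. The genotype by age interaction was fitted over 8 libraries. The 39 gene lists, the rule for named genes, and the tests were chosen with earlier results of these data known. The rule names the 15 largest rises and falls called in mutants, list anchors, called list members, up to 4 further members of a list by size among those whose libraries do not overlap, and 10 genes by the smallest interaction p in each of 2 directions. Genes outside it, 17 of the 58 called, were chosen after their values were seen. Alternatives were the scaling of the authors, quantile normalization, a pseudocount of 0.1, all genes without a filter, a filter at 2 FPKM, a fit without the variance trend, 1 fit over 8 libraries, a replicate block, and each library left out. The scripts were tested on simulated data.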

Additional observations from a re-analysis of the deposited data

Results flagged for a closer look

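Of 170 genes called or named here and tested in mutants, 5 had ages without overlap in either genotype and opposite directions in mutants and controls. The share of all genes with this pattern was not counted, so the 5 cannot be called more than expected. *cart4*, *march7*, and *pyya* were named for their small interaction p, so their opposite directions follow in part from that choice. The neuropeptide gene *cart4* had an interaction of 1.94 on the log2 scale (unadjusted p = 0.00400, limma adjusted p = 0.618), being higher at 2.5 dpf in mutants and lower in controls. *march7* (ENSDARG00000096375), a ubiquitin ligase gene, had the same pattern with an interaction of 0.87 (unadjusted p = 0.00200, limma adjusted p = 0.539). *pyya*, which encodes a peptide of the neuropeptide Y family, had an interaction of −1.77 (unadjusted p = 0.00253, limma adjusted p = 0.571), being lower at 2.5 dpf in mutants and higher in controls. *mycn*, a Myc family gene of proliferating progenitors, had one of −0.92 (unadjusted p = 0.0131, limma adjusted p = 0.867). *foxi1*, a forkhead gene of the ear and of ionocytes, had one of −0.97 (unadjusted p = 0.0375, limma adjusted p = 0.988). None of the 5 passes the adjusted threshold over all genes.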

How the results depend on the processing

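The count of genes called between the ages in mutants (58) was 473 with the scaling of the authors, 18 with quantile normalization, 8 with no filter, 267 with a filter at 2 FPKM (11118 genes tested), 22 with no variance trend, and 479 in 1 fit over 8 libraries. It was 47 with a pseudocount of 0.1, and 72 over genes whose transcripts are the same in both tables, an alternative chosen after seeing the data. Without single libraries it lay between 0 and 78. In controls (990) it was 3517 with the scaling of the authors, 526 with quantile normalization, 76 with no filter, and 2011 in 1 fit over 8 libraries, and without single libraries between 99 and 1288. The interaction gave 0 calls other than 1 with a pseudocount of 0.1 (*cpn1*) and 0 to 1 without single libraries. The median in mutants of the genes higher in controls (0.92) was 1.17 with the scaling of the authors and 1.31 with a pseudocount of 0.1. That of the genes lower in controls (−0.75) was −0.42 with the scaling of the authors. Under another filter fewer or more genes were tested. The cause of these differences was not tested.

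The same-numbered libraries did not deviate together (correlation −0.110 in mutants, −0.135 in controls), so the numbers are not taken as pairs. The replicate block gave 0 calls in mutants (lowest adjusted p 0.0507) and 765 in controls. With the numbers crossed, chosen after seeing the data, limma called 148 genes in mutants and 1318 in controls.

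Of the 58 called genes, 58 were also called with the scaling of the authors, 17 with quantile normalization, and 47 with a pseudocount of 0.1. Of the same genes, 8 were called with no filter and 22 with no variance trend. None of the 58 changed direction under an alternative in which it was tested. That was largely fixed by how they were chosen. Their ages do not overlap, so leaving out a library could not turn them, and their smallest log2 fold change was 1.18 in size. Genes that were not called are not covered, and the median over all genes turned from −0.02 to 0.25 with the scaling of the authors. With 2 libraries per age, unknown depth, and an age that cannot be told apart from its table, small changes were not detectable.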
